A study of Rattus norvegicus with 30 samples.

Results

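The genes described here were those counted over more than 1 promoter window. A gene identifier was included when 2 or more of its rows in the thalamus promoter table held different sets of 10 counts, and rows of 1 identifier with the same counts were kept once. By this rule, 428 of 20196 Ensembl gene identifiers (2.12%) were found, and the same 428 were followed in 3 tissues of the injured side, the cortex around the lesion, the hippocampus and the thalamus. In the 22307 rows of each table, 1538 identifiers had 2 or more rows, and 1110 of these had equal counts only. The 428 genes took up 1076 rows, which reduced to 917 different windows in the cortex and thalamus and 914 in the hippocampus.

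The study compared DNA methylation between 5 sham-operated and 5 traumatic brain injury (TBI) rats, all adult male Sprague-Dawley animals, and brain tissue was taken 3 months after the operation. Lateral fluid-percussion injury, a pressure pulse onto the exposed dura, was given to the TBI rats, whereas the sham-operated rats underwent the same anesthesia and craniectomy without the pulse. Rats 1 to 5 were sham-operated and rats 6 to 10 had TBI, and each rat gave all 3 tissues, so that the data comprised 30 libraries. The hippocampal samples were described in the labels as dentate gyrus with a part of CA3. A library held 1862708 to 3992056 promoter counts in cortex, 1430875 to 2440662 in hippocampus and 2675177 to 4227800 in thalamus, and the member genes took a median of 4.20%, 3.95% and 3.98% of the counts of all different windows. Of the 30 libraries, 6 are treated below as standing apart from the others of their tissue. They are those of rats 4, 6 and 10 (cortex), rats 5 and 9 (hippocampus) and rat 6 (thalamus). This list was set with earlier results of these data known and not by a cut-off on the values given here. Sham rat 1 of the cortex is not on it, though its member genes took 3.24% of the counts, against 3.45% in TBI rat 6. All samples were bulk tissue, in which a change in the mix of cell types and a change in methylation within a cell cannot be told apart.

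Methyl-CpG-binding-domain sequencing (MBD-seq) pulls methylated fragments out of sheared genomic DNA by means of a protein domain with affinity for methyl-CpG. The read count of a window therefore rises with its methylation and also with its density of CpG sites, and no percentage of methylation is obtained. Many mammalian genes have alternative promoters, which start transcripts of the same gene at different positions and can be used in different cell types. CpG-rich promoters are typically unmethylated, and methylated CpG sites are common in the sequence between them. In the tables examined here, each window reached from 5000 bp upstream to 200 bp downstream of a transcription start, so that starts near each other had overlapping windows and shared reads. The rows had no coordinates, and neither the position of a window nor its overlap with the other windows of the gene was known.

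Of the 428 genes, 384 had 2 different windows, 32 had 3, 8 had 4, 3 had 5 and 1 had 6. The rule asked only for unequal counts, and its edge was therefore sharp. Between the windows of 4 genes the counts differed by a single read over the 10 thalamus libraries, in 21 genes they differed by 10 reads or fewer, and the median difference was 336.5 reads. Identifiers just outside the rule had a difference of 0. Because the rule rested on the thalamus table, 426 of the 428 genes had 2 or more different windows in the cortex and 423 in the hippocampus. The member windows did not stand apart in level from the whole table. Levels are given as CPM, the count of a window scaled to the promoter total of its library, and the median over member windows was 30.9 CPM in the cortex, where that over all windows was 29.4 CPM. The corresponding values were 22.6 against 22.1 CPM in the hippocampus and 30.9 against 30.1 CPM in the thalamus.

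To find out how different the windows of a gene were, the window with the highest mean CPM was set against the one with the lowest within each tissue. Since both were chosen by their level, the ratio cannot fall below 1 and is a description without a test. Log2 ratios were taken between mean CPM values after adding 0.5 CPM. The median log2 ratio over the 428 genes was 0.44 for the cortex (quartiles 0.12 and 1.07), 0.74 for the hippocampus (0.19 and 1.64) and 0.55 for the thalamus (0.14 and 1.19). The highest window was at least 2-fold above the lowest in 112 genes of the cortex (26.2%), 173 of the hippocampus (40.4%) and 134 of the thalamus (31.3%). At least 4-fold differences were found in 20, 71 and 38 genes. At the other end, 117, 92 and 106 genes had windows within 1.1-fold of each other. The ratio of highest to lowest grows with the number of windows by construction. In the thalamus, the median log2 ratio was 0.47 in genes with 2 windows, 0.89 in genes with 3 and 2.05 in the 12 genes with 4 to 6.

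In genes whose windows differed at least 2-fold, the levels of both windows were set against those of the whole table. The lowest window of these genes had a median of 20.1, 11.6 and 16 CPM (cortex, hippocampus, thalamus), while the highest had 56.3, 55.1 and 50.2 CPM. In the cortex, the highest window was above the upper quartile of all windows in 77 of the 112 genes, and the lowest was below the lower quartile in 51. Both held in 17 genes, and neither in 1. In the hippocampus, 96 of 173 genes had their highest window above the upper quartile, 73 had their lowest below the lower quartile, both held in 16 and neither in 20. In the thalamus, the numbers were 69, 67, 12 and 10 of 134 genes. The quartiles of all windows were 17.8 and 46.3 CPM in the cortex and 10.1 and 46.1 CPM in the hippocampus. Those of the thalamus were 16.02 and 48.9 CPM. In each tissue they lay more than 2-fold apart, so that a gene with windows just 2-fold apart cannot pass both. The low numbers of genes beyond both quartiles therefore depend on these cut-offs. For the same reason, the numbers with both or neither cannot be compared between tissues.

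ENSRNOG00000018740, with 6 different windows the gene with the most, is shown by library for that reason. In the hippocampus, its highest window had 88.8, 109, 102, 107 and 86.9 CPM in the sham rats and 101, 109, 126, 111 and 111 CPM in the TBI rats. The lowest window had 5.3, 9.8, 10.6, 5.1 and 27.3 CPM in sham and 7.7, 4.2, 7.6, 13.0 and 5.3 CPM in TBI. The lowest window was below the highest in all 10 libraries, and sham rat 5, whose library stood apart, had the highest value of windows 3 to 6 in the tissue. An upper pair of windows was separate from the other 4 in the hippocampus. The means of the upper pair were 105 and 85.6 CPM, and those of the other 4 were 23.1, 22.0, 13.5 and 9.60 CPM. In the thalamus, the 6 means were more evenly stepped, at 81.9, 72.7, 51.0, 41.2, 25.7 and 15 CPM. In the cortex, the steps ran from 78.4 to 22.3 CPM. The log2 ratio of highest to lowest was 3.39 in the hippocampus, 2.41 in the thalamus and 1.79 in the cortex. The sham and TBI values overlapped in each window of the hippocampus.

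**Figure D1:**
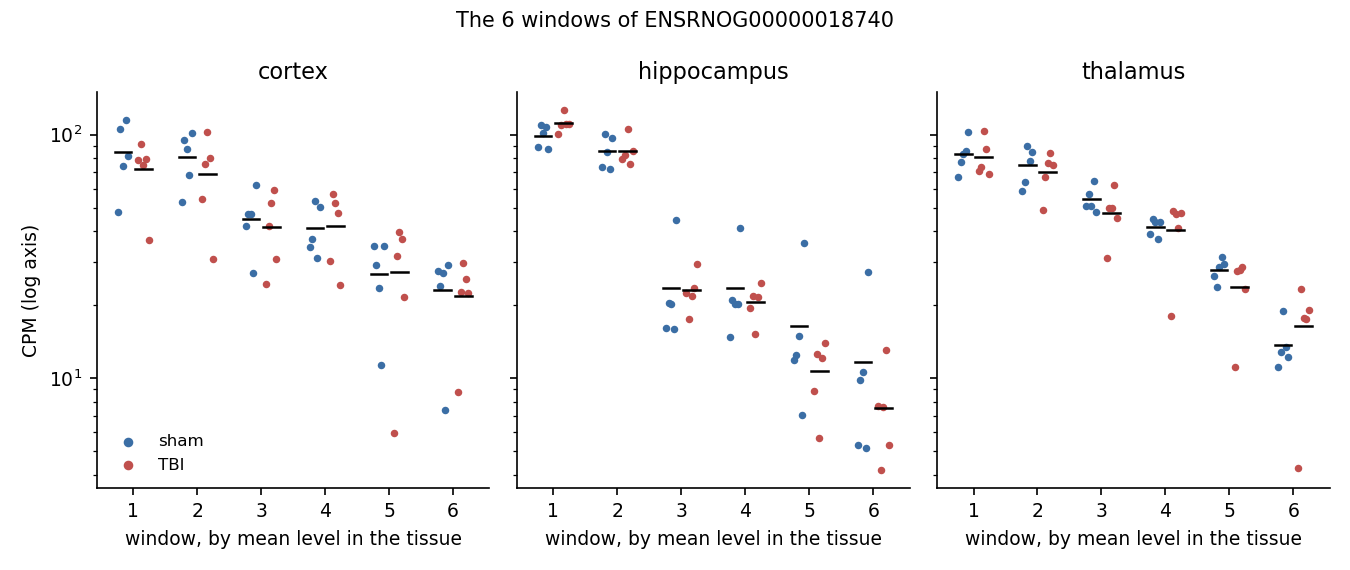
Normalized counts (CPM, log axis) of the 6 windows of ENSRNOG00000018740 in each tissue, windows ordered by their mean level in that tissue; points are libraries (5 sham in blue, 5 TBI in red) and bars are group means. The hippocampus shows 2 windows at means of 105 and 85.6 CPM above 4 at 9.60 to 23.1 CPM, whereas the levels descend step by step in the thalamus and the cortex.

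The largest ratio in the thalamus among genes whose lowest window had a mean of at least 10 counts in every tissue was found in ENSRNOG00000002248, which had 2 windows. Its higher window had 345, 425, 533, 449 and 707 CPM in the sham rats and 868, 318, 502, 481 and 465 CPM in the TBI rats. Its lower window stayed between 17.0 and 37.9 CPM in these 10 libraries, near the median of all windows, and the log2 ratio was 3.99. In the hippocampus, the higher window was at 415 to 1570 CPM and the lower at 18.7 to 42.7 CPM (log2 ratio 5.20). In the cortex, the lower window covered 24.3 to 49.4 CPM, but the higher window covered 80.2 CPM in TBI rat 10 to 1314 CPM in sham rat 4 (log2 ratio 3.47). Both extremes of the cortex belonged to libraries that stood apart, and the third of these, TBI rat 6, had the next highest value, 878 CPM. The 10 genes named for the largest thalamus ratios had log2 ratios of 2.41 to 3.99 there, and the same genes covered 1.43 to 3.81 in the cortex and 1.62 to 5.62 in the hippocampus. ENSRNOG00000042196 was the opposite case. Its windows had the same count in 8 of the 10 thalamus libraries, at a mean of 60.9 CPM for both, and were 1 window with equal counts in the hippocampus, at 63.7 CPM.

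The contrast between windows varied from library to library and was compared between sham and TBI. In the cortex, the median log2 ratio over the 428 genes was 0.29, 0.51, 0.53, 0.70 and 0.51 in the sham rats and 0.75, 0.53, 0.44, 0.42 and 0.11 in the TBI rats. In the hippocampus, it was 0.95, 0.70, 0.87, 0.93 and 0.47 in sham and 0.77, 0.98, 0.86, 0.74 and 0.75 in TBI. In the thalamus, it was 0.52, 0.54, 0.57, 0.49 and 0.66 in sham and 0.81, 0.43, 0.50, 0.54 and 0.52 in TBI. The sham and TBI values overlapped in each tissue, and the 2 lowest values of the 30 libraries were those of TBI rat 10 and sham rat 1 in the cortex. Once the 6 libraries that stood apart were left out, those of the hippocampus (0.70 to 0.98, n = 8) were above those of the cortex (0.29 to 0.53, n = 7) and of the thalamus (0.43 to 0.66, n = 9). Over all libraries the tissues overlapped, at 0.47 to 0.98 in the hippocampus, 0.11 to 0.75 in the cortex and 0.43 to 0.81 in the thalamus. The libraries left out held several of the overlapping values and were chosen with earlier results known, so that the separation rests on their removal.

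**Figure D2:**
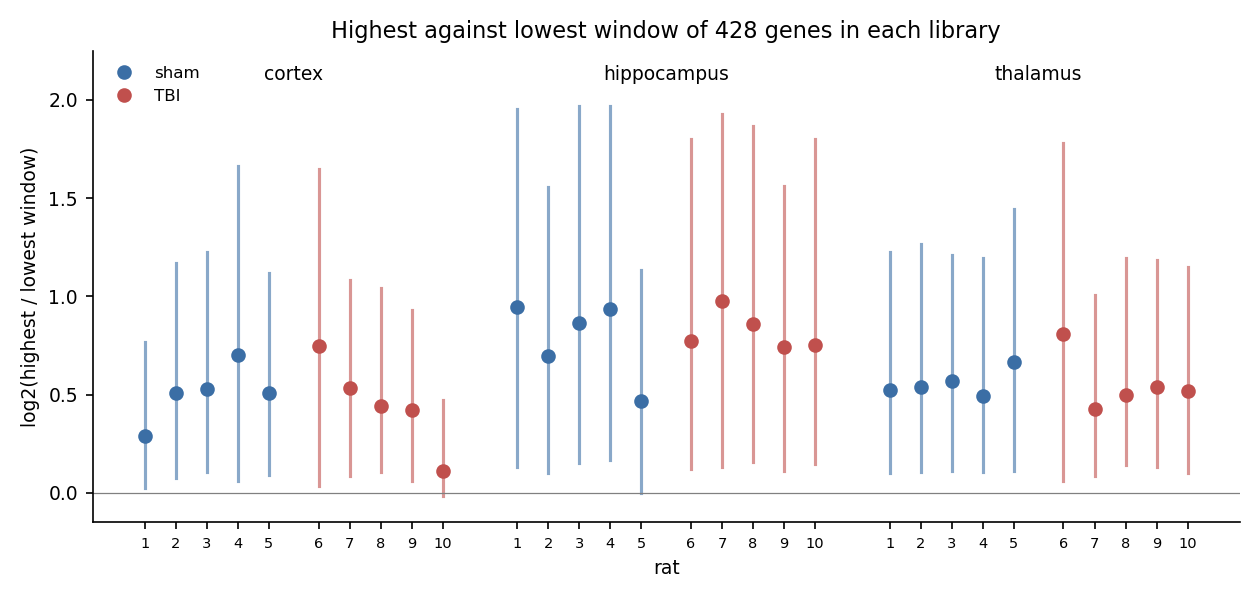
Log2 ratio of the highest to the lowest window over the 428 genes in each library, by rat and tissue; points are medians and bars span the quartiles, sham in blue and TBI in red. The medians run from 0.11 (cortex, TBI rat 10) to 0.98 (hippocampus, TBI rat 7), and sham and TBI overlap in each tissue.

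This contrast moved with the spread of the whole table. The interquartile range of log2 CPM over all windows was 0.66 in the cortex of TBI rat 10, 0.97 in that of sham rat 1 and 2.11 and 2.14 in those of rats 4 and 6. The hippocampus covered 1.56 to 2.61 and the thalamus 1.34 to 2.37. The median contrast divided by this range was between 0.30 and 0.40 in 29 of the 30 libraries and was 0.17 in the cortex of TBI rat 10. Its median over the 30 libraries was 0.35. The wider contrast of the hippocampus was therefore seen together with a wider spread of the table at large, whose part in it was not tested. In comparisons with the thalamus, the instrument cannot be told apart from the tissue. The study's methods, by reference to its RNA-seq, describe another sequencer for the thalamus, whereas the labels name 1 instrument for all libraries. Both sources give the cortex and the hippocampus the same sequencer.

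**Figure D3:**
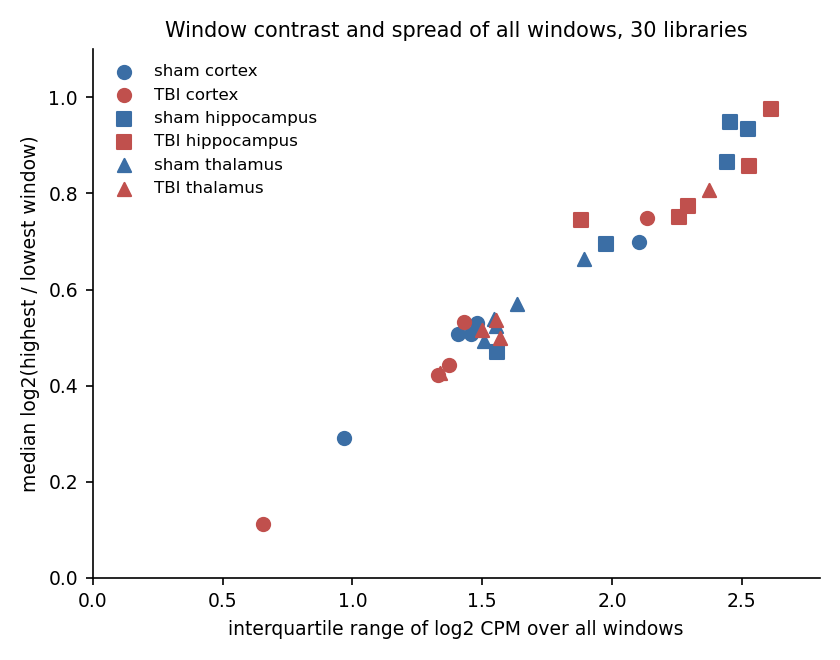
Median log2 ratio of highest to lowest window over the 428 genes against the interquartile range of log2 CPM over all windows of the same library, 30 libraries; circles are cortex, squares hippocampus and triangles thalamus, sham in blue and TBI in red. The libraries lie along 1 band, at a ratio of 0.30 to 0.40, with the cortex of TBI rat 10 below it at 0.17.

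The order of the windows was then taken in the sham rats and measured in the TBI rats, which were not used to set it. In the cortex, 122 genes differed at least 2-fold in sham, and the same window was the higher in all 5 TBI libraries in 111 of them. The median log2 ratio of these 122 genes was 1.52 in sham and 1.32 in TBI. Since the genes of each tissue were also chosen by their sham ratio, the sham medians are raised by the choice. Setting them beside the TBI medians does not measure an effect of TBI. In the hippocampus, the order held in all 5 TBI libraries in 161 of 168 genes, at a median of 1.81 in sham and 1.93 in TBI. In the thalamus, it held in 142 of 147 genes, at 1.52 and 1.39. Windows at least 2-fold apart therefore kept their order in rats that had not set it in most of the genes of each tissue.

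Windows of similar level also varied together across libraries. For genes whose lowest window had a mean of at least 10 counts, the correlation of log2 CPM between the highest and the lowest window was taken across the 10 libraries of a tissue. Its median was 0.977, 0.992 and 0.987 in the cortex, hippocampus and thalamus for windows within 1.1-fold (117, 85 and 106 genes). For windows 1.1-fold to 2-fold apart it was 0.695, 0.573 and 0.727 (199, 145 and 185 genes), and for windows at least 2-fold apart it was 0.251, 0.154 and 0.504 (104, 148 and 125 genes). These are descriptions over 10 libraries that share depth and capture, and they have no test. Windows that share reads vary together by construction, and which windows overlapped was not known. In the cortex and hippocampus, the measured level of 1 window in a library thus told little about that of the other when the windows were at least 2-fold apart. Counting noise in a low window also lowers such a correlation, and its part was not tested.

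The size of the ratio was shared between tissues. Across the 428 genes, the log2 ratios of the cortex and thalamus had a Pearson correlation of 0.902 (Spearman 0.870), those of the cortex and hippocampus 0.849 (0.850), and those of the hippocampus and thalamus 0.761 (0.771). The genes are not independent replicates, the 3 tissues came from the same rats, and windows with shared reads are alike in each tissue. At least 2-fold differences were found in all 3 tissues in 95 genes, in the hippocampus alone in 47, in the thalamus alone in 17 and in the cortex alone in 0, and in no tissue in 234. The ratio was larger in the hippocampus than in the cortex in 312 genes and larger in the hippocampus than in the thalamus in 269. It was larger in the thalamus than in the cortex in 281.

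**Figure D4:**
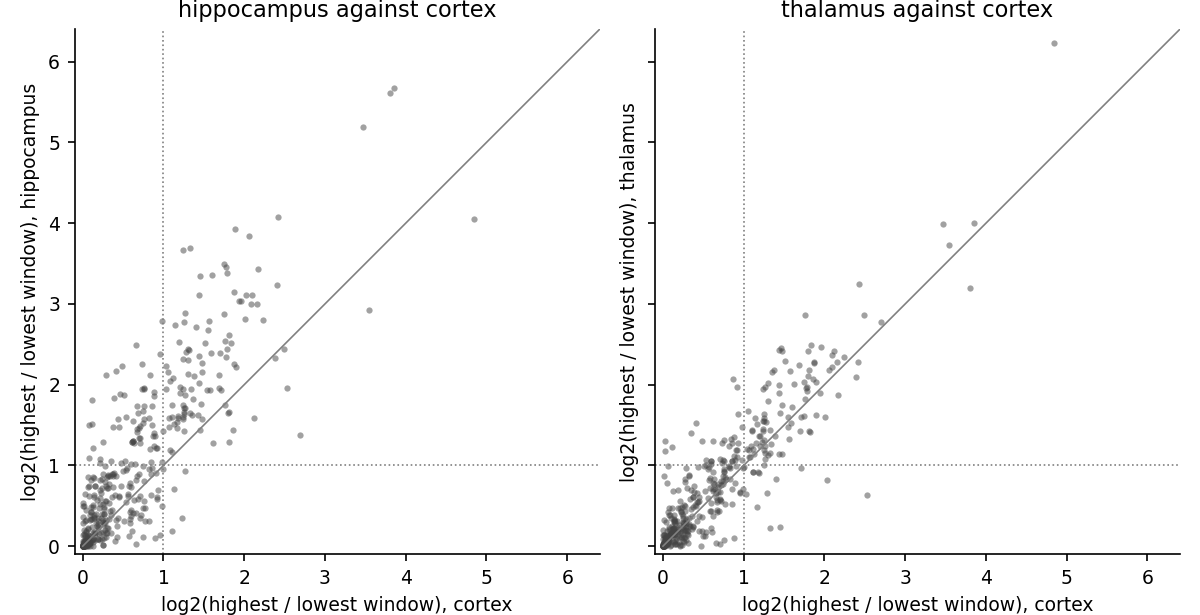
Log2 ratio of the highest to the lowest window of each of the 428 genes in the hippocampus (left) and thalamus (right) against the cortex; each point is a gene, the diagonal marks equal ratios and dotted lines mark 2-fold. In the hippocampus 312 genes and in the thalamus 281 genes have a larger ratio than in the cortex.

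TBI was compared with sham for each window to answer whether promoter methylation was altered 3 months after the injury. In the quasi-likelihood test of edgeR, 0 member windows had an adjusted p under 0.05 in the cortex, hippocampus or thalamus, and the share called in the whole table was 0% in each tissue. DESeq2 also called 0 member windows in each tissue. In the comparisons of TBI with sham, shares and medians of all windows were taken over all rows, including rows of 1 identifier with equal counts. Each member window was counted once. Unadjusted p-values under 0.05 were found in 5 of 909 tested member windows in the cortex (0.773% of all windows), in 31 of 818 in the hippocampus (2.85% of all windows) and in 7 of 903 in the thalamus (0.904% of all windows). The median log2 fold change of the member windows was -0.01, -0.00 and 0.02 for cortex, hippocampus and thalamus, where those of all windows were -0.01, 0.00 and 0.02. In no member window were all 5 TBI libraries above all 5 sham libraries (0.0179%, 0.0583% and 0.00448% of all windows in the cortex, hippocampus and thalamus). All TBI libraries were below all sham libraries in 1 member window in the cortex (0.0493% of all windows), 3 in the hippocampus (0.126%) and 0 in the thalamus (0.0359%). These counts are near those of the whole table or rest on 1 to 3 windows, and are not a result about these genes. In each tissue, the share of all windows with an unadjusted p under 0.05 was below the 1 in 20 that chance gives. The absence of calls therefore does not show that methylation was unchanged.

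The member window with the smallest unadjusted p in each tissue was examined by library. In the cortex, this was the lower window of ENSRNOG00000010580, at 22.1, 22.3, 24.9, 10.3 and 26.3 CPM in sham and 14.7, 36.4, 44.1, 32.0 and 27.8 CPM in TBI. In 4 of 5 TBI rats it was above all sham rats, and the groups overlapped through TBI rat 6, whose library stood apart. The log2 fold change was 0.62 (SE 0.22, edgeR adjusted p = 1.00), and the exact two-sided permutation p of the 10 values was 0.198. Its higher window had means of 67.9 CPM in sham and 62.7 CPM in TBI.

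In the hippocampus, 1 library decided the result. The window of ENSRNOG00000004621 that took up 1 row had 16.6, 12.5, 7.7, 6.1 and 12.6 CPM in sham and 23.0, 4.2, 4.7, 472 and 20.9 CPM in TBI, so that TBI rat 9 had more than all other rats together. It was the window with the higher mean only through this rat, and was above the other window in 3 of 10 libraries. The log2 fold change was 3.22 (SE 0.97, edgeR adjusted p = 1.00) and 0.40 without TBI rat 9, and the exact two-sided permutation p was 0.523. The other window of this gene had 26.9 CPM in TBI rat 9 and 9.5 to 27.6 CPM in all 10 libraries, so that the high value was confined to 1 window of the gene in that library. With an exact test that uses 1 common dispersion and library totals, 8 of 818 member windows were called in the hippocampus (3 higher and 5 lower in TBI), where 0.784% of all windows were. This window was 1 of the 8, with an adjusted p of 8.33e-22.

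In the thalamus, the higher window of ENSRNOG00000031607 had 60.6, 68.9, 90.0, 71.0 and 73.5 CPM in sham and 23.7, 65.9, 61.7, 45.9 and 65.9 CPM in TBI. The sham and TBI values overlapped, since the lowest sham value was below 3 TBI values. The log2 fold change was -0.43 (SE 0.16, edgeR adjusted p = 1.00), and the exact two-sided permutation p was 0.0476. The permutation p-values of the windows picked in the 3 tissues were taken on the values that picked them. They make no allowance for the pick. The lower window of the gene had means of 58.2 CPM in sham and 52.1 CPM in TBI. Over the 252 assignments of 10 libraries, the smallest p that the exact test can give is 0.00794.

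Whether TBI acted differently on the windows of 1 gene was tested by comparing the fold change of each window with that of the whole gene, over all genes with several windows. In edgeR, 0 genes were called in each tissue (0% of all genes tested, nearly all of which were members). Unadjusted p-values under 0.05 were found in 4 of 421 genes in the cortex, 6 of 366 in the hippocampus and 0 of 419 in the thalamus (0.928%, 1.62% and 0% of all genes tested). The log2 ratio of highest to lowest window differed between TBI and sham by a median of -0.05, 0.03 and -0.00 for cortex, hippocampus and thalamus. The 5th and 95th percentiles over genes were -0.47 and 0.27, -0.44 and 0.59, and -0.34 and 0.26. When TBI rat 6 was left out, 20 of 421 genes in the cortex (smallest adjusted p = 0.261 in edgeR) and 17 of 420 in the thalamus passed an unadjusted 0.05, and 0 were called. Chance gives about 1 in 20 at this threshold, and nearly all genes tested were members. These counts are therefore not a result about the member genes.

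The summed counts of all windows of a gene were compared between tissues, because all genes but few of the windows could be matched between the tables. The main fit did not pair the libraries of a rat. Left out were 17 identifiers, 7 of them members, with another number of different windows in 1 of the tables. In the hippocampus, 126 of 421 member genes were higher and 110 lower than in the cortex (adjusted p under 0.05 in edgeR), against 28.5% and 28.7% of all genes. In the thalamus, 24 were higher and 51 lower than in the cortex, against 9.38% and 10.6% of all genes. Between thalamus and hippocampus, 113 were higher and 140 lower in the thalamus, against 29.2% and 30.4% of all genes. For hippocampus versus cortex and thalamus versus hippocampus, 56.1% and 60.1% of the tested members were called, beside 57.2% and 59.6% of all genes, so that the shares of members were near those of the table. Their median log2 fold changes were 0.04, -0.00 and -0.11, and those of all genes were -0.05, 0.01 and 0.02. Without the libraries that stood apart, 302, 131 and 316 member genes were called, beside 71.5%, 28.9% and 72.4% of all genes. With sham rats only, 0, 26 and 142 were called, beside 0.0152%, 6.23% and 32.9% of all genes.

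For hippocampus versus cortex and thalamus versus hippocampus, the balance of higher and lower calls depended on the scaling, in the members and in the whole table. With library totals in place of TMM scaling, the median log2 fold change of all genes was -0.34 for hippocampus versus cortex and 0.33 for thalamus versus hippocampus. For hippocampus versus cortex, 31 members were then higher and 172 lower, beside 9.43% and 40.7% of all genes. For thalamus versus hippocampus, 175 were higher and 65 lower, beside 44.6% and 16.4% of all genes. For thalamus versus cortex, lower calls were the more frequent under both scalings, with 6 members higher and 26 lower under library totals, beside 3.00% and 5.75% of all genes. When the highest window of each gene was used in place of the sum, 171 members were higher and 85 lower in the hippocampus than in the cortex, beside 28.5% and 28.9% of all genes. With the lowest window, 71 were higher and 155 lower, beside 28.4% and 28.7%. For thalamus versus hippocampus, the highest windows gave 93 higher and 168 lower, beside 29.3% and 30.4% of all genes, and the lowest windows 139 higher and 87 lower, beside 29.1% and 30.4%. Most other genes had 1 window, for which this choice changes nothing. The highest and lowest windows were chosen in each tissue separately, by the same levels that gave the ratios above, so that the turn in balance is a description.

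In ENSRNOG00000012563, the summed counts of 2 windows were lower in the thalamus than in the hippocampus (log2 fold change -1.68, SE 0.15, adjusted p = 3.95e-09). The higher window had 79.9, 58.4, 127, 102 and 60.6 CPM in the sham and 84.8, 108, 109, 104 and 84.8 CPM in the TBI hippocampus. In the thalamus it had 17.3, 35.0, 22.3, 32.5 and 28.4 CPM in sham and 21.3, 27.3, 26.1, 26.8 and 19.8 CPM in TBI, without overlap. The lower window had a mean of 10.2 CPM in the hippocampus and 14.3 CPM in the thalamus, and its log2 fold change was 0.19 (adjusted p = 0.590). Only the higher window was thus without overlap, with the windows ordered by level in each tissue separately. The highest value of the lower window in the hippocampus, 38.2 CPM, was that of TBI rat 9, whose library stood apart.

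ENSRNOG00000017283 was the member with the smallest p among those higher in the hippocampus than in the cortex (log2 fold change of the sum 1.15, SE 0.20, adjusted p = 0.000626). Its higher window was at 170 to 302 CPM in the hippocampus and 49.3 to 189 CPM in the cortex, where only sham rat 4, whose library stood apart, was over 151 CPM. The lower window was at 26.9 to 42.4 CPM in the hippocampus and 21.2 to 40.6 CPM in the cortex. The levels of the higher window overlapped through 1 library of the cortex, and those of the lower window overlapped more widely. With sham rats only, its log2 fold change was 1.09 (adjusted p = 0.124).

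Some windows could be followed between tissues through the number of rows they took up. In 68 genes, the windows differed in the number of deposited rows that shared their counts, and this number was the same in all 3 tables, so that windows with equal numbers were taken as the same window. This comparison was chosen after the data were seen. The same window was the highest in all 3 tissues in 54 of the 68 genes, and in 15 of the 16 genes whose windows were at least 2-fold apart in all 3. When the order was set in the cortex, all 17 genes with at least 2-fold differences kept it in the hippocampus and 16 kept it in the thalamus. The order set in the hippocampus was kept in 28 of 29 genes in the cortex and 26 of 29 in the thalamus. The window highest in 1 tissue was therefore mostly the highest in the others.

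Within these genes, the difference between tissues was tested for unequal change of the windows. Between hippocampus and cortex, 22 of 67 tested genes had an adjusted p under 0.05 in edgeR (32.8%). Of these, 17 had the wider contrast in the hippocampus, 2 in the cortex, and 3 had the opposite order. Between thalamus and hippocampus, 30 of 66 genes were called (45.5%), of which 17 were wider in the hippocampus, 4 in the thalamus and 9 had the opposite order. Between thalamus and cortex, 8 of 67 were called (11.9%), 6 of them wider in the thalamus and 2 of opposite order. Only members could be tested, so that the percentages over all genes tested are those of the members. Without the libraries that stood apart, 34, 35 and 7 genes were called. No gene was called in all 3 pairs of tissues.

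ENSRNOG00000004201 changed the order of its windows between tissues. One window took up 1 row and the other 5 rows. In the cortex, the 1-row window had 61.1, 85.5, 83.1, 41.4 and 73.0 CPM in sham and 42.9, 39.0, 73.7, 39.1 and 53.6 CPM in TBI, above the 5-row window (16 to 27.6 CPM) in each library. In the thalamus, the 1-row window had 6.2, 5.8, 5.6, 2.6 and 4.4 CPM in sham and 0.95, 7.9, 7.2, 8.3 and 7.3 CPM in TBI, below the 5-row window (21.8 to 32.0 CPM) in each library. The 5-row window thus covered nearly the same levels in both tissues, whereas the values of the 1-row window did not overlap between them. The difference between the log2 fold changes of the windows was 3.64 (edgeR adjusted p = 2.82e-17). In the hippocampus of ENSRNOG00000004201, the 1-row window had 280, 40.7, 50.0, 27.6 and 41.9 CPM in sham and 28.3, 56.6, 19.4, 97.4 and 106 CPM in TBI, with sham rat 1 far above the rest. The difference from the thalamus was 3.97 (adjusted p = 1.19e-06), and that from the cortex was 0.35 (adjusted p = 0.527). The summed counts of the gene were lower in the thalamus than in the cortex (log2 fold change -1.32, SE 0.12, adjusted p = 6.96e-08), a difference that stood in the 1-row window. For the same gene, TBI and sham overlapped in the 1-row window in each tissue, in the thalamus only through TBI rat 6, whose library stood apart.

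**Figure D5:**
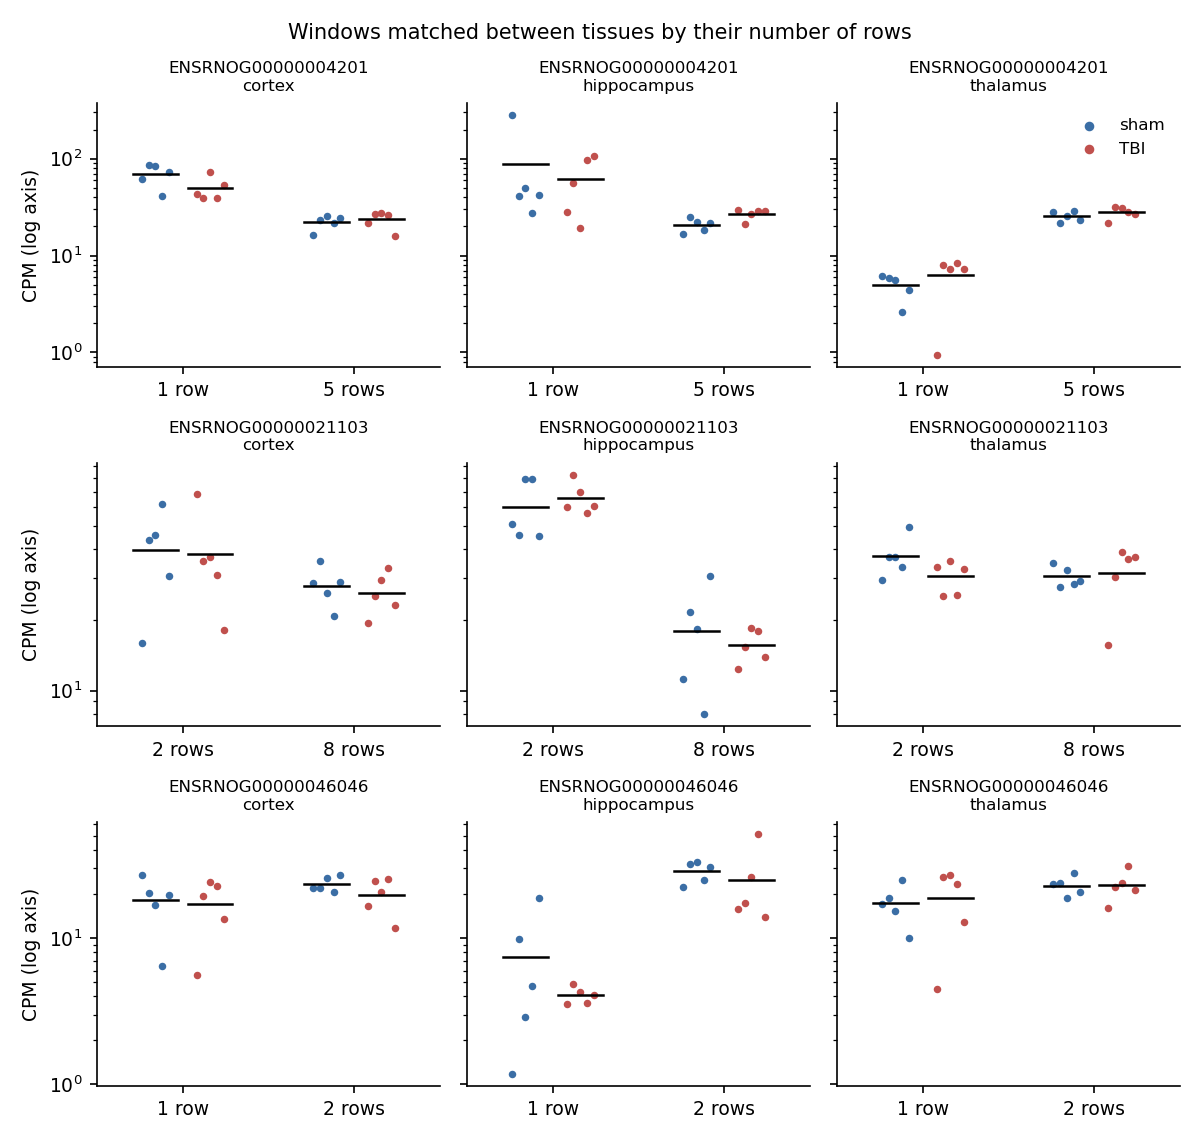
Normalized counts (CPM, log axis) of the windows of 3 genes that could be followed between tissues by their number of deposited rows; points are libraries (5 sham in blue, 5 TBI in red) and bars are group means. The 1-row window of ENSRNOG00000004201 falls from a mean of 59.2 CPM in the cortex to 5.62 CPM in the thalamus, and the 2-row and 8-row windows of ENSRNOG00000021103 lie apart in the hippocampus (63.1 and 16.8 CPM) and together in the thalamus (33.9 and 31.1 CPM).

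ENSRNOG00000021103 and ENSRNOG00000046046 had windows that lay further apart in the hippocampus than in the thalamus. In the thalamus, the 2-row window of ENSRNOG00000021103 had 29.4, 36.8, 37.0, 33.6 and 49.5 CPM in sham and 33.4, 25.3, 35.6, 25.5 and 32.9 CPM in TBI, in the same range as its 8-row window at 15.6 to 38.9 CPM. In the hippocampus, the 2-row window was at 45.5 to 82.5 CPM and the 8-row window at 7.9 to 30.8 CPM, without overlap. The difference between the log2 fold changes was 1.80 (edgeR adjusted p = 1.08e-07). Between hippocampus and cortex, ENSRNOG00000046046 had the smallest p. Its 1-row window was at 5.6 to 27.0 CPM in the cortex and 1.2 to 18.7 CPM in the hippocampus, and its 2-row window at 11.8 to 26.8 CPM and 13.9 to 51.2 CPM. The difference was 1.99 (adjusted p = 4.67e-05), and the highest value of the 1-row window in the hippocampus was that of sham rat 5, whose library stood apart.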

How the data were processed

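Reads had been mapped by the authors to Rnor_5.0 with STAR, with splicing prohibited, and the authors deposited whole-number counts per promoter window, made with blocksStats of Repitools in R 3.1.0, without normalization. The promoter counts of 30 libraries were used here, and the exon and gene body counts were not used. The files give Ensembl identifiers without symbols, and none was matched in the RefSeq tables used here, so that gene lists by symbol could not be applied and no sequences are shown.

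CPM were computed from library totals with a pseudocount of 0.5. Windows, window usage (diffSpliceDGE) and summed windows were tested over the whole tables with the quasi-likelihood F test of edgeR 4.0.16 in R 4.3.3 after filterByExpr (minimum count 10, minimum total count 15) and TMM scaling, with Benjamini-Hochberg adjustment and a threshold of 0.05. The tests were checked on counts simulated from the levels of the thalamus and cortex with a fixed dispersion. No library was simulated to stand apart, so that the check does not show how many changes the tests would find in these libraries. In the comparisons of TBI with sham, p-values over libraries measure the spread between rats. The main fits between tissues, of summed and of matched windows, treated libraries of the same rat as independent. Alternatives used DESeq2 1.42.0, limma 3.58.1 (voom, for window usage), other filters and scalings, the exact test of edgeR, sham rats only, the highest or lowest window alone, the rat as a block, and left out single rats or the libraries that stood apart. Tables and figures were made with Python 3.11.15, pandas 2.3.3, scipy 1.17.1 and matplotlib 3.10.9. The members, lists and tests, and the libraries that stand apart, were chosen with earlier results of these data known. The members named were those with the most windows (5), the largest (10) and closest (5) windows in the thalamus with a lowest window of at least 10 mean counts in each tissue, and those with the smallest p per comparison (5 in each direction or test). Fewer are printed, and genes of the matched-window comparison were chosen after their values were seen.

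Replicate libraries differed beyond sampling noise (chi-square per degree of freedom at least 2.06). The rat numbers of the labels were the same in the 3 tissues and mark the same animals, and a fit with the rat as a block was run as an alternative. The median correlation of the deviations from the group mean between tissues of the same rat was 0.03 for cortex and hippocampus, 0.12 for cortex and thalamus and -0.05 for hippocampus and thalamus, with 2, 5 and 2 of 10 rats over 0.1.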

Additional observations from a re-analysis of the deposited data

Results flagged for a closer look

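In 98 groups of 5 libraries checked, 17 had a library far from the other 4, where chance gives about 1 in 20, or 4.9. The groups are not independent, since several are windows of 1 gene in 1 library. Most of the 17 also come from genes named for their p-values or ratios. The 17 therefore cannot be weighed against 4.9. The median contrast over the interquartile range was 0.17 in the cortex of TBI rat 10 (0.32 to 0.37 in the other TBI rats), and the interquartile range of log2 CPM was 2.37 in the thalamus of TBI rat 6 (1.34 to 1.57). In the hippocampus, sham rat 5 had 44.4, 41.4, 35.9 and 27.3 CPM in windows 3 to 6 of ENSRNOG00000018740, each above the other 4 sham rats. TBI rat 9 had 472 CPM in the 1-row window of ENSRNOG00000004621 and 38.2 CPM in the lower window of ENSRNOG00000012563, where the other TBI rats had at most 23.0 and 7.6 CPM. Sham rat 1 had 280 CPM in the 1-row window of ENSRNOG00000004201 and 9.5 CPM in the 3-row window of ENSRNOG00000004621. In ENSRNOG00000004201, TBI rat 7 had 21.0 CPM in the 5-row window of the hippocampus and TBI rat 6 had 0.95 CPM in the 1-row window of the thalamus. In the cortex, TBI rat 6 had 878 CPM in the higher window of ENSRNOG00000002248, and TBI rat 8 had 40.6 CPM in the lower window of ENSRNOG00000017283. For ENSRNOG00000010580 in the cortex, sham rat 1 had 41.4 CPM and TBI rat 10 had 29.8 CPM in the higher window, and sham rat 4 had 10.3 CPM in the lower. Of these 17 values, 12 came from libraries that stood apart from their tissue, which had been chosen with earlier results of these data known.

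By the test of the difference itself, the windows of 1 gene differed unequally between tissues, with the smallest p per pair in ENSRNOG00000046046 for hippocampus and cortex (difference of log2 fold changes 1.99), ENSRNOG00000004201 for thalamus and cortex (3.64) and ENSRNOG00000021103 for thalamus and hippocampus (1.80). The part that the spread of each tissue's whole table had in these differences was not tested.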

How the results depend on the processing

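With 5 rats per group, the absence of called member windows between TBI and sham held under each alternative run (DESeq2, library totals, 2 other filters and leaving out libraries), except that edgeR's exact test (1 common dispersion, library totals) called 8 in the hippocampus (0.784% of all windows), ENSRNOG00000004621 among them (log2 fold change 3.26). Unadjusted p-values under 0.05 were rarer in the main fit than chance gives, so that 0 calls do not show unchanged methylation. Leaving out 1 rat at a time gave 0 calls, with 4 to 33, 19 to 43 and 5 to 57 unadjusted p-values under 0.05 in the cortex, hippocampus and thalamus. Shares of all windows are not given for these fits, and the counts are not a result about these genes. Window usage gave 0 calls under its alternatives, with 0 to 20, 3 to 11 and 0 to 17 unadjusted when 1 rat was left out. The median log2 ratio of highest to lowest window stayed within the spread between libraries under each alternative and was 0.41 to 0.49, 0.70 to 0.80 and 0.53 to 0.56 when 1 rat was left out.

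With sham rats only, the number of member genes called was 0 (128 with an unadjusted p under 0.05) for hippocampus versus cortex, 26 for thalamus versus cortex and 142 for thalamus versus hippocampus, with fewer samples (0.0152%, 6.23% and 32.9% of all genes). For thalamus versus cortex, library totals gave 32 and leaving out the libraries that stood apart gave 131, against 75. Without 1 rat, the 3 comparisons gave 186 to 248, 58 to 91 and 231 to 285. Shares of all genes are not given for these fits or for the 128 above, and these counts are not a result about the member genes. In the fit with the rat as a replicate block (paired), 226, 102 and 239 members were called (58.0%, 28.4% and 57.5% of all genes), and no named call was lost. Matched windows gave 25, 11 and 29 calls with the block for hippocampus versus cortex, thalamus versus cortex and thalamus versus hippocampus. Without the libraries that stood apart, hippocampus versus cortex gave 34 in place of 22, and without 1 rat the counts were 13 to 24 (13 without TBI rat 8), 5 to 9 (5 without rat 1, 2, 3 or 10) and 24 to 30. The log2 fold change of ENSRNOG00000012563 for thalamus versus hippocampus was 0.19 with the lowest window. With sham rats only, that of ENSRNOG00000017283 and ENSRNOG00000011452 for hippocampus versus cortex was 1.09 and -0.89 (adjusted p = 0.124 for both). The causes of these changes in calls and fold changes were not tested. Low counts limit the ratios: in 8, 50 and 12 genes of the cortex, hippocampus and thalamus, the lowest window had a mean under 10 counts.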
